A study of Homo sapiens with 8 samples.

Results

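CCNG2, HBP1, KLHL24, HIPK3, UHMK1, TTC17 and SLC44A5 are 7 genes of the 17687 measured by symbol in BE2C, a human neuroblastoma cell line with amplified MYCN. They were chosen by their higher expression on these same arrays, both after the KDM6 inhibitor GSK-J4 and after knockdown of KDM6B, so their values, intervals and counts of calls are a description and no independent evidence that they differ. The arrays fell into 4 groups of 2: cells given GSK-J4 for 24 h, cells given 0.1% DMSO for 24 h, cells transfected with KDM6B siRNA at 30 nM for 48 h, and cells transfected with control siRNA at the same dose and time. The inhibitor is an ester prodrug that blocks KDM6 histone demethylases once cleaved inside the cell. Its labelled dose is 2.5 mM, whereas the study's text gives 2.5 μM for BE2C cells in its other assays, so the labelled unit is uncertain. All groups come from 1 cell line, the replicates are labelled as biological, and the siRNA sequence used for an array is not labelled. The 2 comparisons share no array, and drug and siRNA arms differ in treatment time as well as in agent.

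A cell that leaves the division cycle for a reversible resting state, quiescence, represses the E2F target genes of DNA replication and mitosis and expresses a set of growth-restraining genes. Forkhead factors of the FOXO family, which growth-factor signalling keeps out of the nucleus, switch on several of these, CCNG2 among them. In neuroblastoma, MYCN amplification drives cells through G1, and KDM6B removes the repressive trimethyl mark that PRC2 puts on histone H3. The 7 genes are not all of this kind. CCNG2 encodes cyclin G2, an unconventional cyclin that is abundant in resting cells and slows cycle entry. HBP1 encodes an HMG-box transcription factor that binds RB family proteins and represses growth genes. KLHL24 encodes a BTB-kelch adaptor of cullin 3 ubiquitin ligases, and HIPK3 a homeodomain-interacting protein kinase. UHMK1 encodes a kinase that phosphorylates the CDK inhibitor p27 and moves it out of the nucleus, which favours cycle re-entry. TTC17 encodes a tetratricopeptide repeat protein linked to actin and cilia, and SLC44A5 a choline transporter-like protein.

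The promoters of CCNG2 and HBP1 are shown because each holds 1 of the motifs searched for growth control. Each line gives the 250 bases before an annotated start in RefSeq (GRCh38.p14), 5′ to 3′ on the gene's strand, which is the plus strand for both. Capitals in CCNG2 (chr4:77156957-77157206) mark an E-box, CACGTG, the hexamer bound by MYC with MAX and by related factors, 30 to 25 bases before the start. Capitals in HBP1 (chr7:107168753-107169002) mark a FOXO-type forkhead motif, GTAAACA, 173 to 167 bases before the start. HBP1 has 2 annotated starts, and the window of the other, which is not shown, held none of the motifs searched.
CCNG2: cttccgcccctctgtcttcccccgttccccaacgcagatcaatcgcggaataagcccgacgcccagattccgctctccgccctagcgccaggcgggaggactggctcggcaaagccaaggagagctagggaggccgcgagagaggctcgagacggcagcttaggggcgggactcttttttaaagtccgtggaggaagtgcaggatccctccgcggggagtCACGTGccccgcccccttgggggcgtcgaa
HBP1: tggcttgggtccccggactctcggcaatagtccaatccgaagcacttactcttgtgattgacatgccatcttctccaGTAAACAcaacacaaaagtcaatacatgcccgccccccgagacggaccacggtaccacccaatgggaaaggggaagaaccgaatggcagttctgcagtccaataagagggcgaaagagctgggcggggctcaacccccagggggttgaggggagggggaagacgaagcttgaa

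Both strands of the window from 250 bases before to 50 bases after the start were searched at 35116 annotated starts, of which 11 belonged to the 7 genes. GTAAACA was found at 1 of these 11 starts, against 3.42% of all starts, and CACGTG at 1 of 11, against 7.26%. The E2F motifs TTTCCCGC, TTTGGCGC, TTTCGCGC and TTTGCCGC lay in 3.31% of all windows, the cell cycle homology element TTTGAA in 15.16%, the amino acid response motif TGATGNAA in 3.62% and the cyclic AMP response motif TGACGTCA in 1.85%. At the 11 starts each of these was found 0 times. The windows of the 7 genes had a median GC content of 62.0% (40.7% to 79.7%), against 58.7% over all starts, and a median of 19 CpG dinucleotides (1 to 44), against 14. A match of letters is a description of the sequence and was set against no binding data, and the genes had starts with very different GC content.

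Values are log2 expression per gene, so that a difference of 1 is a doubling, and in a culture read in bulk more cells expressing a gene and more RNA per cell cannot be told apart. All 7 genes lay above background, the 95th percentile of the negative control probe sets of an array, on all 8 arrays except SLC44A5 on 1 DMSO array. CCNG2 read 8.40 and 8.27 on the GSK-J4 arrays, against 6.91 and 7.13 on the DMSO arrays. It read 7.83 and 8.30 on the KDM6B siRNA arrays, against 6.87 and 7.04 on the control siRNA arrays. Treated and control arrays did not overlap in either arm, and the KDM6B siRNA arrays stood farther apart than any other pair for this gene. The difference was 1.31 with GSK-J4 (SE 0.18, 95% interval 0.91 to 1.72, 2.49-fold) and 1.10 with KDM6B siRNA (SE 0.18, 0.70 to 1.51, 2.15-fold), the largest of the 7 in each arm.

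HBP1 read 9.10 on both GSK-J4 arrays, against 7.91 and 7.96 on the DMSO arrays. With siRNA it read 9.13 and 9.32 for KDM6B, against 8.36 and 8.18 for the control. No treated array reached down to a control array, and the GSK-J4 pair was nearly identical. The difference was 1.16 with GSK-J4 (SE 0.13, 2.24-fold) and 0.95 with KDM6B siRNA (SE 0.13, 1.94-fold). Among all 17687 genes ordered by their rise, CCNG2 stood at place 89 with GSK-J4 and place 17 with KDM6B siRNA, and HBP1 at places 117 and 40.

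KLHL24 read 8.28 and 8.31 with GSK-J4, against 7.25 and 7.46 with DMSO. It read 7.68 and 7.66 with KDM6B siRNA, against 6.87 and 6.90 with control siRNA. Both siRNA groups lay below their counterparts of the drug arm, and neither arm overlapped with its controls. The difference was 0.93 with GSK-J4 (SE 0.12, 1.91-fold) and 0.78 with KDM6B siRNA (SE 0.12, 1.72-fold). The knockdown value was the smallest of the 7.

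The kinases HIPK3 and UHMK1 stood apart from the other 5 genes in the drug arm. HIPK3 read 6.41 and 6.37 with GSK-J4, against 5.86 and 6.17 with DMSO, and 7.52 and 7.51 with KDM6B siRNA, against 6.56 and 6.54 with control siRNA. UHMK1 read 8.48 and 8.49 with GSK-J4, against 8.28 and 8.33 with DMSO, and 10.02 and 9.86 with KDM6B siRNA, against 8.88 and 8.89 with control siRNA. For both genes the drug groups did not overlap but lay close together, and the knockdown groups lay far apart. The HIPK3 difference was 0.38 with GSK-J4 (SE 0.13, 95% interval 0.07 to 0.69, 1.30-fold), against 0.96 with KDM6B siRNA (SE 0.13, 1.95-fold). The UHMK1 difference was 0.18 with GSK-J4 (SE 0.12, interval -0.09 to 0.45, 1.13-fold), against 1.06 with KDM6B siRNA (SE 0.12, 2.08-fold). They stood at places 1598 and 3924 among the rises with GSK-J4, and at places 35 and 22 with KDM6B siRNA. A rise with the drug was thus small for both kinases on these arrays, and the UHMK1 interval reached below 0.

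TTC17 read 9.01 and 9.06 with GSK-J4, against 7.97 on both DMSO arrays, and 8.87 and 8.96 with KDM6B siRNA, against 7.97 on both control siRNA arrays. Its 4 control arrays were level across both arms. The difference was 1.06 with GSK-J4 (SE 0.11, 2.09-fold) and 0.94 with KDM6B siRNA (SE 0.11, 1.92-fold). SLC44A5, the dimmest relative to background, read 6.09 and 6.23 with GSK-J4, against 5.22 and 4.88 with DMSO, and 6.06 and 6.05 with KDM6B siRNA, against 5.08 and 5.14 with control siRNA. The lower DMSO value lay just under the background limit of that array, the highest limit of the 8 at 4.89. The difference was 1.10 with GSK-J4 (SE 0.14, 2.15-fold) and 0.95 with KDM6B siRNA (SE 0.14, 1.93-fold).

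**Figure D1:**
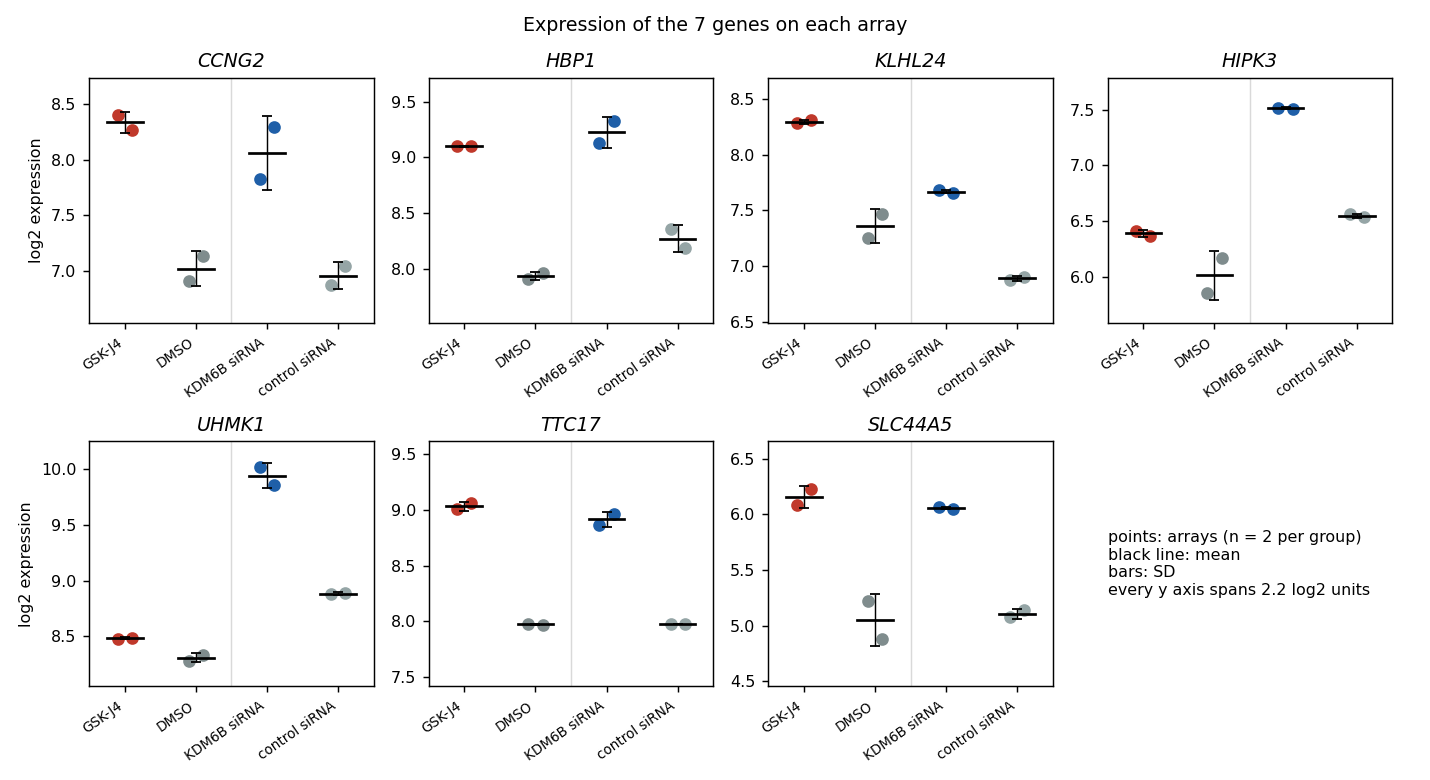
Log2 expression of the 7 genes on each of the 8 arrays, with 1 panel per gene, GSK-J4 and DMSO to the left and KDM6B siRNA and control siRNA to the right (points are arrays, n = 2 per group, black lines the mean, bars the SD, and each axis spans the same range). All treated points lie above the control points of their arm, with the narrowest gap for UHMK1 with GSK-J4.

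Across the 7 genes the median difference was 1.06 with GSK-J4 (0.18 to 1.31), where the median over all genes was -0.02, and 0.95 with KDM6B siRNA (0.78 to 1.10), where it was 0.01. The knockdown differences thus spanned a narrower range than the drug differences, whose low end was set by both kinases. In limma across all 17687 genes, with Benjamini-Hochberg adjustment and a threshold of 0.05, 5 of the 7, all but HIPK3 and UHMK1, passed upward with GSK-J4, where 405 genes (2.29%) did so and 249 (1.41%) passed downward. All 7 passed upward with KDM6B siRNA, where 20 genes (0.113%) did so and 87 (0.492%) passed downward. In each arm both treated arrays lay above both control arrays for all 7 genes, a pattern that 25.5% of all genes had with GSK-J4 and 22.2% with KDM6B siRNA. These counts restate how the genes were chosen. The knockdown calls rest on the spread shared by all 4 groups: in a fit on the 4 siRNA arrays alone 0 of the 7 passed, with 7 at an unadjusted p under 0.05, and leaving out any 1 of the 6 arrays without KDM6B siRNA also left 0. For GSK-J4, leaving out DMSO replicate 1 left 2 of the 5 (TTC17 and SLC44A5), leaving out DMSO replicate 2 left 2 (KLHL24 and TTC17), leaving out GSK-J4 replicate 1 left 1 (TTC17) and leaving out GSK-J4 replicate 2 left 0.

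**Figure D2:**
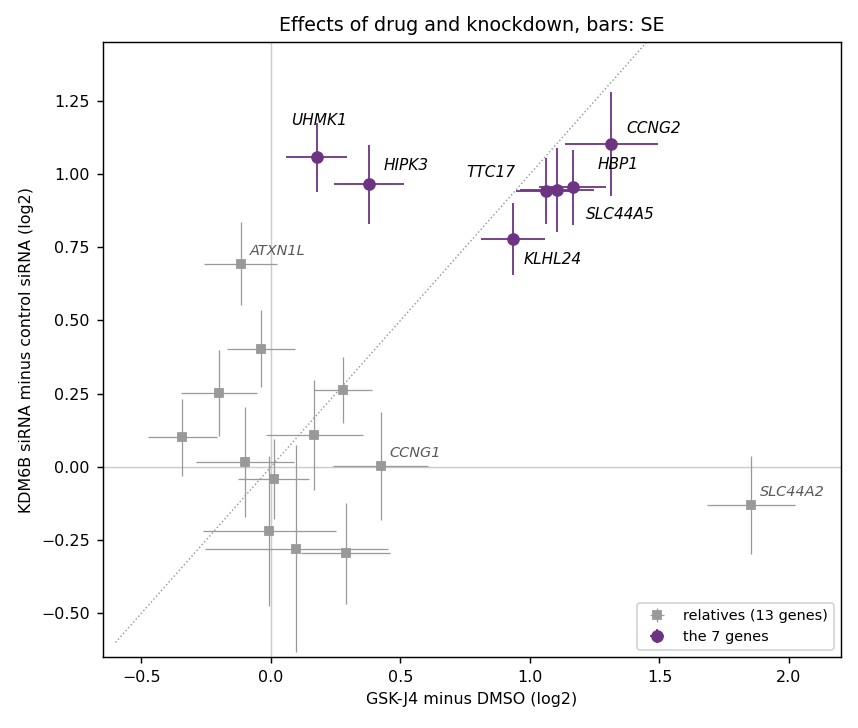
Log2 difference GSK-J4 minus DMSO (horizontal) against log2 difference KDM6B siRNA minus control siRNA (vertical) for the 7 genes (circles) and 13 measured relatives (squares), with bars giving the SE of the fit and a dotted line of equal differences. CCNG2, HBP1, KLHL24, TTC17 and SLC44A5 lie near the line, UHMK1 and HIPK3 above it at 0.18 and 0.38 horizontally, and SLC44A2 far to the right at 1.85.

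Of all genes, 6 (0.0339%) passed upward in both comparisons, against 0 in a fit on the 4 arrays of each comparison. Of these 6, 5 were CCNG2, HBP1, KLHL24, TTC17 and SLC44A5, which restates how they were chosen. The other gene was TNFSF4, a ligand of the tumour necrosis factor family. TNFSF4 read 3.62 and 3.94 with GSK-J4, against 3.11 and 2.89 with DMSO, and 4.18 and 3.92 with KDM6B siRNA, against 3.02 and 2.83 with control siRNA. These values lay below background on all 8 arrays, so no fold is given.

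The baseline levels of 4 of the genes lay apart between the arms. Control siRNA minus DMSO was -0.06 for CCNG2, 0.00 for TTC17 and 0.06 for SLC44A5, but 0.34 for HBP1, 0.54 for HIPK3, 0.58 for UHMK1 and -0.47 for KLHL24. KDM6B siRNA minus GSK-J4 was 1.12 for HIPK3 and 1.46 for UHMK1, and -0.63 for KLHL24. The 2 kinases were thus already higher in the control of the siRNA arm, and agent and treatment time cannot be told apart in these offsets. Drug difference minus knockdown difference was -0.59 for HIPK3 and -0.88 for UHMK1, and lay between 0.12 and 0.21 for the other 5 genes. Over all genes the difference of the effects passed in 163 (0.922%) in either direction, and none of the 7 was among these, a count that is given as a description because both effects served to choose them.

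KDM6B itself was read to check the knockdown. It read 7.22 and 5.76 on the KDM6B siRNA arrays, against 8.27 and 8.35 on the control siRNA arrays, a difference of -1.82 (SE 0.39) that missed the threshold in limma (adjusted p = 0.0878). Both arrays lay below both controls, but replicate 2 was much lower than replicate 1. In the drug arm KDM6B read 9.41 and 9.18 with GSK-J4, against 8.17 and 8.47 with DMSO (difference 0.98, SE 0.39, limma adjusted p = 0.250). Against the control siRNA mean, KDM6B was -1.09 on replicate 1 and -2.56 on replicate 2 of the KDM6B siRNA arrays. CCNG2 was 0.87 above its control mean on replicate 1 and 1.34 on replicate 2, and HBP1 0.86 and 1.05. UHMK1 was 1.14 and 0.98 above, and KLHL24, HIPK3, TTC17 and SLC44A5 differed between the arrays by under 0.1. The array with less KDM6B mRNA was thus not the higher one for all 7 genes, and 2 arrays do not allow a relation to be tested.

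**Figure D3:**
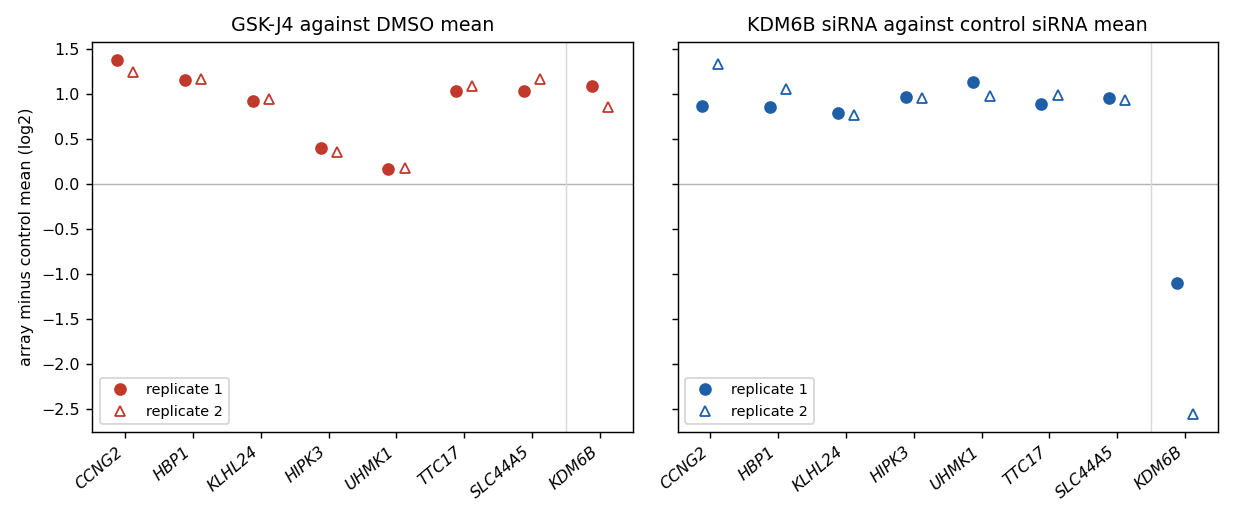
Log2 level of each treated array minus the mean of its control pair for the 7 genes and KDM6B, with GSK-J4 on the left and KDM6B siRNA on the right (circles are replicate 1, triangles replicate 2). The KDM6B siRNA replicates are -1.09 and -2.56 for KDM6B but close together for KLHL24, HIPK3 and SLC44A5.

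The KDM6B siRNA arrays were the least alike pair. They correlated at 0.974 across genes, with 906 genes more than 1 apart, against 0.994 to 0.996 in the other groups with 3 to 8 such genes. The 7 genes differed between these replicates by 0.01 to 0.47, where the SD of such differences over all genes was 0.472, and between the GSK-J4 replicates by 0.00 to 0.14, where it was 0.200. Between 12982 and 13633 genes lay above background on an array, and array medians ran from 6.16 to 6.20. All 8 measured adrenergic neuroblastoma markers were above background on all 8 arrays. Their summed log2 level was 80.2 to 80.3 with GSK-J4 and 80.5 to 80.8 with DMSO, and 70.6 to 75.9 with KDM6B siRNA and 79.0 to 79.3 with control siRNA. Sums can hide opposite shifts, and with GSK-J4 4 of the 8 had a difference above 0. TH, tyrosine hydroxylase, was the 1 marker that passed with KDM6B siRNA, where it fell by 1.04 (limma adjusted p = 0.0196), and 0 passed with GSK-J4. Over all genes 0.492% passed downward with KDM6B siRNA. At an unadjusted p under 0.05, 4 of the 8 were downward with KDM6B siRNA and 2 with GSK-J4, and 0 upward in either. Over all genes the downward shares were 7.85% and 8.42%. DBH, singled out after its values were seen, passed in neither comparison. It read 9.28 and 7.32 with KDM6B siRNA, against 10.61 and 10.63 with control siRNA. With GSK-J4 DBH read 11.03 and 11.06, against 10.57 and 10.45 with DMSO. The median of the 8 against the control siRNA mean was -0.22 on KDM6B siRNA replicate 1 and -0.75 on replicate 2. Of 10 measured markers of other cell types 6 were above background on all arrays (COL1A1, COL1A2, S100B, SOX10, CD68 and KRT5), and their sum over all 10 was 56.1 to 56.6 with GSK-J4 and 55.9 to 57.0 with DMSO, and 56.3 to 57.1 with KDM6B siRNA and 56.5 to 57.3 with control siRNA. The part of the adrenergic marker shift in the knockdown values of the 7 genes was not tested.

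Close relatives were read to see how far each family moved with its member. Among all genes 2.29% passed upward with GSK-J4 and 0.113% with KDM6B siRNA. Of 13 measured relatives, 1 passed upward with GSK-J4 and 0 with KDM6B siRNA, where 3 had an unadjusted p under 0.05 in the upward direction, as 6.78% of all genes did. SLC44A2, another choline transporter-like protein, read 8.18 and 8.20 with GSK-J4, against 6.14 and 6.52 with DMSO, and 6.35 and 6.03 with KDM6B siRNA, against 6.25 and 6.39 with control siRNA. It was thus higher only in the drug arm (1.85, SE 0.17, limma adjusted p = 0.00137), with a knockdown difference of -0.13 (adjusted p = 0.785), and the difference of the effects passed (1.98, adjusted p = 0.0113). SLC44A1 differed by -0.01 with GSK-J4 and -0.22 with KDM6B siRNA. SLC44A3, HIPK4 and KLHL6 lay below background on all 8 arrays.

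CCNG1, the paralogue of CCNG2 and a p53 target, differed by 0.42 with GSK-J4 (SE 0.18, limma adjusted p = 0.292) and by 0.00 with KDM6B siRNA (adjusted p = 0.997). The cyclin I gene CCNI differed by 0.28 and 0.26 and CCNI2 by -0.20 and 0.25, with the drug value first. HIPK1 differed by 0.29 with GSK-J4 and -0.30 with KDM6B siRNA, and HIPK2 by 0.10 and -0.28 and none of these passed. ATXN1, which shares the AXH domain with HBP1, differed by 0.17 and 0.11. ATXN1L differed by -0.12 with GSK-J4 and 0.69 with KDM6B siRNA (limma adjusted p = 0.0776), and the kelch gene KLHL38, above background on 2 arrays, by -0.04 and 0.40.

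Among FOXO factors and their targets, 4 of 26 measured genes passed upward with GSK-J4 and 0 downward, and the list's median difference was 0.35. At an unadjusted p under 0.05, 10 were upward and 0 downward with GSK-J4. With KDM6B siRNA 0 passed in either direction, the median was 0.15, and 7 were upward and 2 downward at an unadjusted p under 0.05. Over all genes that share was 6.78% upward and 7.85% downward with KDM6B siRNA, and 8.59% upward and 8.42% downward with GSK-J4. After adjustment, 2.29% of all genes passed upward and 1.41% downward with GSK-J4, and 0.113% and 0.492% with KDM6B siRNA. TXNIP, which restrains glucose uptake and growth, rose with GSK-J4 by 2.27 (SE 0.26, limma adjusted p = 0.00484), at 10.00 and 10.26 against 7.82 and 7.88 with DMSO. With KDM6B siRNA TXNIP read 9.00 and 8.08, against 7.77 and 7.78 with control siRNA (0.77, adjusted p = 0.232). GABARAPL1, an autophagy protein, rose by 1.71 with GSK-J4 (adjusted p = 0.0366), and its KDM6B siRNA arrays stood apart at 7.04 and 8.34, against 6.63 and 6.61 with control siRNA. TSC22D3, the glucocorticoid-induced leucine zipper, rose by 1.38 with GSK-J4 (adjusted p = 0.00133) against 0.07 with KDM6B siRNA, and the effects differed (adjusted p = 0.0193). CDKN1B, which encodes p27, rose by 0.57 with GSK-J4 (adjusted p = 0.0369) and differed by 0.24 with KDM6B siRNA (adjusted p = 0.384). The 2 downward with KDM6B siRNA, against 7 upward, were BNIP3 and GADD45A. BNIP3 differed by -0.96 with KDM6B siRNA (limma adjusted p = 0.226) and 1.00 with GSK-J4 (adjusted p = 0.152). GADD45A differed by -0.59 with KDM6B siRNA (adjusted p = 0.244) and 0.46 with GSK-J4 (adjusted p = 0.310).

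Of 20 measured anti-proliferative and quiescence genes, a list that also holds TXNIP, 7 passed upward with GSK-J4 and 0 downward, with a median of 0.45. Among all genes 2.29% passed upward and 1.41% downward with GSK-J4. With KDM6B siRNA 0 passed, the median was 0.06, and 6 were upward and 3 downward at an unadjusted p under 0.05. Those shares over all genes were 6.78% and 7.85%. The 3 downward were NDRG1, given below, BTG3 and TOB1. The 6 upward were TXNIP, given above, CREBRF, given below, PNRC1, RNF103, YPEL3 and YPEL5. With KDM6B siRNA PNRC1 differed by 0.66 (limma adjusted p = 0.0639) and RNF103 by 0.68 (adjusted p = 0.0791). In the same arm YPEL3 differed by 0.88 (adjusted p = 0.160) and YPEL5 by 0.45 (adjusted p = 0.293). With GSK-J4 RNF103 differed by 0.22 and YPEL3 by 0.40. BTG3 differed by -0.65 with KDM6B siRNA (limma adjusted p = 0.0553) and -0.38 with GSK-J4. TOB1 differed by -0.90 with KDM6B siRNA (limma adjusted p = 0.0990) and 0.50 with GSK-J4. CREBRF, a negative regulator of the unfolded protein response factor CREB3, read 7.55 and 7.40 with GSK-J4, against 4.42 and 4.87 with DMSO. The DMSO values were not above background, so the CREBRF level with GSK-J4 was at least 6.58-fold higher (limma adjusted p = 0.00216). With KDM6B siRNA CREBRF read 5.92 and 6.81, against 4.92 and 4.72 (1.54, adjusted p = 0.0577). YPEL2, a yippee-like protein, read 5.32 and 5.66 with GSK-J4, against 4.17 and 4.27 with DMSO, which were also not above background, and was at least 1.67-fold higher (adjusted p = 0.00587). NDRG1, a stress-induced growth suppressor, rose by 1.09 with GSK-J4 (adjusted p = 0.0109) and was -0.44 with KDM6B siRNA (adjusted p = 0.245), and these effects differed (adjusted p = 0.0238). The remaining upward calls with GSK-J4, named here only to complete the list, were YPEL5 at 0.95, PNRC1 at 0.80 and MXI1, a MAX-binding antagonist of MYC, at 0.63. With KDM6B siRNA MXI1 differed by 0.04, and YPEL5 and PNRC1 are given above.

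**Figure D4:**
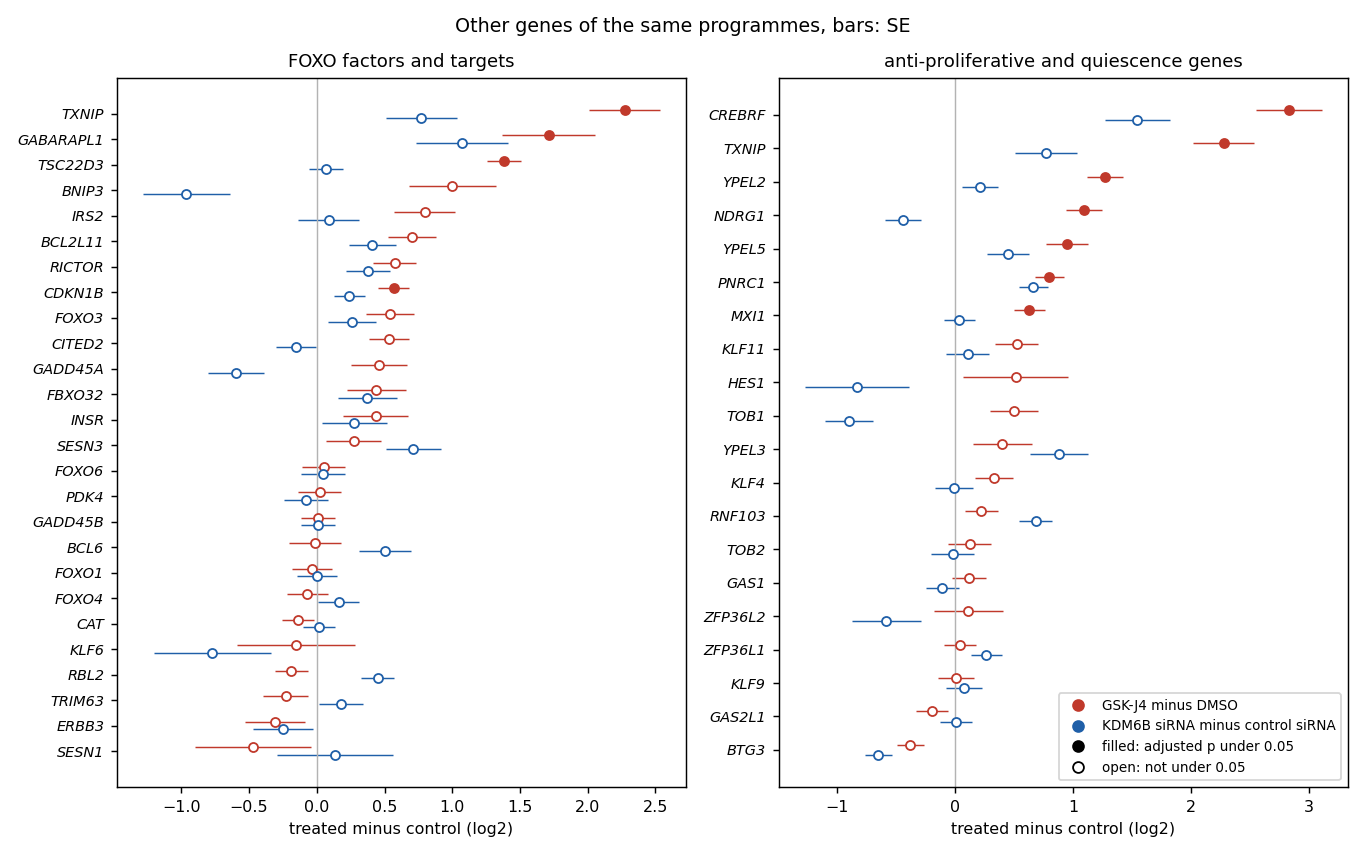
Log2 difference, treated minus control, of the 26 measured FOXO factors and targets (left) and the 20 measured anti-proliferative and quiescence genes (right), with GSK-J4 minus DMSO in red and KDM6B siRNA minus control siRNA in blue (bars are the SE of the fit, filled circles passed at an adjusted p under 0.05). Filled circles are seen for GSK-J4 in 4 genes on the left and 7 on the right, and for KDM6B siRNA in 0.

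Known partners and targets of single members were read next. Among all genes 2.29% passed upward with GSK-J4 and 0.113% with KDM6B siRNA. At an unadjusted p under 0.05 the shares were 8.59% upward and 8.42% downward with GSK-J4. With KDM6B siRNA they were 6.78% and 7.85%. Of 7 measured genes known as HBP1 targets, 1 passed upward with GSK-J4 and 0 with KDM6B siRNA, where 3 were downward at an unadjusted p under 0.05. MYCN, which HBP1 can repress, was singled out after its values were seen because the line carries its amplification. It read 11.81 and 11.88 with GSK-J4, against 12.16 and 12.12 with DMSO, and 11.92 and 10.78 with KDM6B siRNA, against 12.06 and 12.06 with control siRNA, and passed in neither. The call was CDKN1A, which encodes the CDK inhibitor p21. CDKN1A differed by 1.15 with GSK-J4 (SE 0.21, limma adjusted p = 0.0246) and by -0.90 with KDM6B siRNA (SE 0.21, adjusted p = 0.103), and the effects differed (2.05, adjusted p = 0.0237). Among UHMK1 partners and substrates, 2 of 5 passed upward with GSK-J4, namely CDKN1B, given above, and PAM, and 0 with KDM6B siRNA, with 1 upward and 2 downward at an unadjusted p under 0.05. PAM, the peptide-amidating enzyme whose cytosolic tail binds this kinase, rose by 0.97 with GSK-J4 (SE 0.15, adjusted p = 0.0158) and differed by 0.73 with KDM6B siRNA (adjusted p = 0.0791). Of 4 measured KLHL24 and cullin 3 partners and 10 genes of choline uptake and phosphatidylcholine synthesis, 0 passed in either comparison. At an unadjusted p under 0.05, 1 of the 4 was downward with GSK-J4 and 0 with KDM6B siRNA, and of the 10, 2 were upward with GSK-J4 and 2 downward with KDM6B siRNA.

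Markers of dividing cells passed only downward in both arms. Among all genes 2.29% passed upward and 1.41% downward with GSK-J4, and 0.113% and 0.492% with KDM6B siRNA. At an unadjusted p under 0.05 the shares were 8.59% upward and 8.42% downward with GSK-J4. With KDM6B siRNA they were 6.78% and 7.85%. Of 18 measured proliferation markers 3 passed downward with GSK-J4 and 2 with KDM6B siRNA, none upward, with medians of -0.54 and -0.75. At an unadjusted p under 0.05, 10 were downward with GSK-J4 and 16 with KDM6B siRNA, and 0 upward in either. The knockdown arrays were uneven here. Against the control siRNA mean the median of the 18 was -0.37 on KDM6B siRNA replicate 1 and -1.03 on replicate 2, although all 18 lay below it on both. The GSK-J4 arrays were at -0.55 each against the DMSO mean, with 17 of the 18 below it on each. The exception was E2F1, which read 7.39 and 7.73 with GSK-J4, against 7.25 and 7.30 with DMSO, and did not pass. The 3 that passed with GSK-J4 were the mitotic genes BUB1, CCNB1 and AURKA. BUB1 fell by 1.48 (SE 0.12, limma adjusted p = 0.000788), CCNB1 by 1.21 (adjusted p = 0.0164) and AURKA by 0.90 (adjusted p = 0.0114). The 2 that passed with KDM6B siRNA were the G1/S cyclin CCNE2 and the replication clamp PCNA. CCNE2 fell by 1.64 (SE 0.24, adjusted p = 0.0357) and PCNA by 1.00 (adjusted p = 0.0485). BUB1 differed by -0.42 with KDM6B siRNA, and its effects differed (adjusted p = 0.0321), whereas for CCNB1, AURKA, CCNE2 and PCNA the difference of the effects did not pass. Among 13 genes of the DREAM complex and pocket proteins, which repress E2F targets in resting cells, TFDP1 fell by 1.30 with KDM6B siRNA (SE 0.11, adjusted p = 0.0111) and differed by -0.43 with GSK-J4 (adjusted p = 0.0905). TFDP1 was the 1 of the 13 that passed with KDM6B siRNA, where 1 was upward and 2 downward at an unadjusted p under 0.05. With GSK-J4 0 of the 13 passed, with 3 upward and 1 downward at an unadjusted p under 0.05. Of 7 measured CDK inhibitors 2 passed upward with GSK-J4, CDKN1A and CDKN1B, and CDKN3, a phosphatase acting on CDKs, fell by 1.35 (adjusted p = 0.00949). With KDM6B siRNA 0 passed, with 2 downward at an unadjusted p under 0.05.

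The genes whose pattern was most like that of the 7 were found by Pearson correlation over the 8 arrays, each array taken minus the mean of its own control pair, with the mean of the 7 genes. The points share their arrays, and the control arrays lie near 0 by construction, so the correlation mainly orders genes by how evenly they moved in both arms. Of 13316 genes above background in at least 1 group, the 5 most alike were PGAP1 (r = 0.992), HMBOX1 (0.990), RPL27 (0.989), CACUL1 (0.984) and ELK4 (0.984). PGAP1, which remodels glycosylphosphatidylinositol anchors, was 0.54 higher with GSK-J4 and 0.62 higher with KDM6B siRNA, and HMBOX1, a homeobox telomere-binding protein, 0.70 and 0.66. ELK4, an ETS factor that partners serum response factor, was 0.58 and 0.54 higher, CACUL1, a cullin-like CDK2 activator, 0.30 and 0.32, and the ribosomal protein gene RPL27 0.15 and 0.20. A high correlation therefore covered differences well below those of the 7 genes. Among the 7, each gene's correlation with the mean of the other 6 was 0.945 to 0.983 for CCNG2, HBP1, KLHL24, TTC17 and SLC44A5, against 0.838 for HIPK3 and 0.671 for UHMK1. All 7 were chosen for higher values on these same arrays, so likeness among them is built in and is no evidence of a shared programme.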

How the data were processed

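BE2C RNA was extracted on columns and hybridised to Affymetrix Clariom S human arrays. The authors deposited 1 log2 value for each probe set of each array. The submitters' processing notes name GCOS. How background, normalization and probe summary were handled was not given in the sources used here, and log2 was read from the range of the values (1.69 to 13.4). Array medians were nearly equal, so a change in total RNA per cell would not show. Of 24351 probe sets, 17709 had 1 symbol, and the probe set with the highest mean stood for a gene, leaving 17687 genes. Arrays have no read depth, and their number limits precision.

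Groups came from the sample labels. Differences were fitted over all 8 arrays with limma's lmFit and eBayes (version 3.58.1, R 4.3.3, two-sided). The fit had 1 coefficient per group (4 residual and 4.18 prior degrees of freedom), and p-values were adjusted by Benjamini-Hochberg at 0.05. A p-value sets a difference against the spread between replicate arrays of 1 cell line, shared over the 4 groups. The members and lists were chosen with earlier results of these data known. Named genes were the 7 with all measured relatives, from each other list the 4 or fewer largest differences that passed, any others passing upward in both comparisons, the 5 most alike and KDM6B. YPEL5, PNRC1, MXI1 and AURKA were named beyond the 4 to complete the calls of their lists. MYCN, DBH, BTG3, TOB1, E2F1, RNF103, YPEL3, BNIP3 and GADD45A were named outside this rule, after their values were seen. A fold against a group whose arrays were both below background is a bound, against the higher of each value and the background limit of its array. Alternatives were quantile normalization, a fit to the 4 arrays compared, array weights, a filter on dim probe sets, the replicate block, the methods' t-test and leaving out each array. Promoters came from RefSeq.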

Additional observations from a re-analysis of the deposited data

How the results depend on the processing

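With 2 arrays a group the counts of calls moved widely. The log2 differences of the 7 genes stayed above 0 in all 182 values over 13 settings, and 16 of these values moved by over 1 SD. Leaving out an array could not turn the sign, since all treated arrays lay above the controls of their arm. The genes were chosen for higher values on these arrays, so their constant sign is a description and no evidence of robustness. Genes higher with GSK-J4 numbered 405, against 1038 in a fit on the 4 arrays of the comparison, 1119 with array weights, 1636 by the methods' t-test at an unadjusted p under 0.05 and 0 after Benjamini-Hochberg, and 52 to 1320 with 1 array left out. Of the 7 genes 5 passed with GSK-J4, 0 by that t-test after adjustment (6 before it) and 0 to 5 with 1 array left out. Genes higher with KDM6B siRNA numbered 20, against 0 in the 4-array fit (701 at an unadjusted p under 0.05), 2 with array weights, 31 with the filter on dim probe sets, 686 by the t-test and 0 after adjustment, and 0 to 1694 with 1 array left out. The highest count came without KDM6B siRNA replicate 1, and it was 286 without replicate 2. Of the 7 genes 7 passed with KDM6B siRNA, against 0 in the 4-array fit, 1 with array weights (UHMK1), 0 by the adjusted t-test (7 before it), and 0 to 7 with 1 array left out. Genes higher in both comparisons numbered 6, against 0 in the 4-array fit, 0 with array weights, 112 by the t-test and 0 after adjustment, and 0 to 320 with 1 array left out. The replicate block gave 302 genes higher with GSK-J4 with 5 of the 7, and 5 higher with KDM6B siRNA with 2 of the 7 (UHMK1 and TTC17), and 2 in both. Deviations of same-numbered arrays correlated at 0.0879 for GSK-J4 with DMSO and -0.0357 for KDM6B siRNA with control siRNA, so the numbers were not taken to pair them. Of 760 list counts under alternatives, 139 moved. The cause of these changes was not tested.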
